A study of Mus musculus with 15 samples.

Results

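The simple epithelial keratins are the intermediate filament proteins of single-layered epithelia. The members described here are Krt7, Krt8, Krt18, Krt19, Krt20 and Krt23, taken by name; each was read from a probe set whose annotation names it alone, and where a gene had several the one with the highest mean level over all 15 arrays stood for it. All 6 genes were found, with 8 probe sets between them, among 18193 genes measured on Affymetrix expression arrays of mouse lung.

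The arrays fall into 5 groups of 3. The first group holds lung tumours labelled Smad4 d/d, taken at 12 months of age, each sample being part of one single tumour, and it was set against wild type lung of 12 months. The second holds lung labelled Smad4 d/d at 7 months, an age that the series places ahead of tumour initiation. The third is lung at 7 months from mice whose Smad4 is intact, called Smad4-intact mutant lung below. Both were set against wild type lung of 7 months. Smad4 encodes the common mediator of TGF-beta and BMP signalling. The Smad4 d/d mice and the Smad4-intact mutants carry in common the deletion of a further gene, so each comparison with wild type is one of whole genotypes, and the comparison of Smad4 d/d lung with Smad4-intact mutant lung is the one in which the Smad4 deletion alone differs by the labels. All mice were of mixed background, and the lung samples were parts of whole lungs. The sources used here name neither what drove the deletions nor the cells in which they occurred. Nor do the labels say that the arrays of a group came from separate animals, so p-values measure the spread between these samples, which may be technical in part. Xist, given below, differed strongly between arrays within each wild type group, so neither of those groups came from a single animal.

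Keratins form filaments as pairs of one type I and one type II protein. Krt7 and Krt8 are type II keratins, and Krt18, Krt19, Krt20 and Krt23 are type I. Krt8 and Krt18 are the primary pair of simple epithelia and among the earliest keratins made in the embryo; in the lung, airway and alveolar epithelial cells contain them. Krt7 is typical of ducts and airways, Krt19 is a short keratin that lacks most of the tail domain and marks airway and ductal epithelium, Krt20 is best known from gut epithelium, urothelium and Merkel cells, and Krt23 is a less studied type I keratin. Most type I keratin genes of the mouse lie together on chromosome 11 and most type II genes on chromosome 15, with Krt18 as the type I gene that sits beside Krt8 in the type II cluster.

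The promoters of 4 members are shown, those whose windows hold CAGAC, a short element that Smad4 protein complexes are known to bind. Any part of this element in the keratin changes was not tested. The RefSeq windows of build GRCm38.p6 matched 5 of the 6 members (Krt7, Krt8, Krt18, Krt20 and Krt23). Each line gives the 250 bases ahead of the annotated start, 5′ to 3′ on the strand of the gene, and capitals mark CAGAC or its reverse complement GTCTG. The windows lie at chr15:102004343-102004592 on the minus strand for Krt8, chr15:102027966-102028215 on the plus strand for Krt18, chr15:101412153-101412402 on the plus strand for Krt7 and chr11:99493121-99493370 on the minus strand for Krt23.
Krt8: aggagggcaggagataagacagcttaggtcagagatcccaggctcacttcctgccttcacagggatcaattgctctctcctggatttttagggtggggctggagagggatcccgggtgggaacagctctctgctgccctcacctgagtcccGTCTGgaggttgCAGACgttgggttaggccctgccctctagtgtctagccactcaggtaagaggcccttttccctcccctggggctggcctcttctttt
Krt18: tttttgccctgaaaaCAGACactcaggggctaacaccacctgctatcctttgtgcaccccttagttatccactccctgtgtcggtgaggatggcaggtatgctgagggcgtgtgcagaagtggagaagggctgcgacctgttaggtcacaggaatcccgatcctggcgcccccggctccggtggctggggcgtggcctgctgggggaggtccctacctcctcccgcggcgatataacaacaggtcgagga
Krt7: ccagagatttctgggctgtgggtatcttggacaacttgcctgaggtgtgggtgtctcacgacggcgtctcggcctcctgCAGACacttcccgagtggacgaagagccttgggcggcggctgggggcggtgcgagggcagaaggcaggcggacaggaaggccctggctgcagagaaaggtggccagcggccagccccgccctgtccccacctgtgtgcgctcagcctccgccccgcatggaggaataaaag
Krt23: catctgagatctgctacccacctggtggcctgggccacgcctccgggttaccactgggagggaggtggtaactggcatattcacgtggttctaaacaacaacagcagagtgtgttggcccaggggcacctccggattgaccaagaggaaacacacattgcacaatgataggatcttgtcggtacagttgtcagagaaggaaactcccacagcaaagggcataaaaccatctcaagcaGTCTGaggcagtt
Krt8 holds the element 2 times, at 99 and 87 bases ahead of the start, and Krt7, Krt18 and Krt23 hold it 1 time each, whereas the Krt20 window at chr11:99438154-99438403 on the minus strand has none. Counting both strands, CAGAC occurs in 42.2% of 32851 RefSeq windows of the same length, so it is a common run of letters. A further 4 motifs were searched on both strands. GGGCGG, the GC box, occurred 4 times in Krt7 and in none of the others (32.7% of windows hold it), TATAAA occurred in Krt20 alone at 29 bases ahead of the start (12.4%), GGAAG, an ETS core, occurred in Krt7, Krt8 and Krt20 (64.1%), and TGANTCA, the AP-1 site, occurred in none of the 5 (6.75%). No overlaps between these motifs were searched for. These matches describe letters in the windows, not bound sites.

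Values are the intensities deposited for each probe set on a linear scale; levels of different probe sets cannot be compared with each other. Fold changes and tests are on log2(intensity + 16), fitted with limma across all 18193 genes, and a gene is called at a Benjamini-Hochberg adjusted p under 0.05 over all of them. Array medians lay between 90.9 and 99.5, and arrays of one group correlated with r between 0.982 and 0.996. The Smad4 probe set could not check the genotypes: it averaged 3303 ± 364 in the tumours and 2819 ± 137 in 12-month wild type lung, and 3292 ± 109 in Smad4 d/d lung, 2938 ± 9.77 in Smad4-intact mutant lung and 3220.4 ± 73.7 in 7-month wild type lung (SD, n = 3 each). The labels do not say whether it reads the deleted stretch, and the groups are named below as they are labelled. The arrays of 12 months and of 7 months are described by the series as separate studies, so age and study cannot be told apart. Arrays also differed in Xist, which female cells express: it lay between 64.1 and 237 on the 3 tumour arrays but at 69.8, 6786 and 6917 on the 12-month wild type arrays, and in 7-month wild type lung it was at 48.1 on 1 array and at 4839 and 4959 on the others. It ran from 4516 to 4902 in Smad4 d/d lung and from 3678 to 5451 in Smad4-intact mutant lung. The part of Xist in the results was not tested, apart from 1 alternative fit of the tumours described with Krt7. Signal of the 18S ribosomal control probes lay between 1121 and 2036 in the tumours, against 5492 to 6933 in 12-month wild type lung; its part in the results was not tested.

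In the 12-month tumours, 5 of the 6 keratins were called higher than in wild type lung and 0 were called lower; 9.23% of all genes tested were called higher, 6.02% lower and 15.2% in either direction. The same 5 did not overlap between the groups, which held for 20.5% of all genes in the higher and 17.0% in the lower direction. Krt8, Krt18 and Krt19 rose by 2.48-fold to 3.24-fold, Krt23 by 2.54-fold and Krt7 by 1.40-fold, while Krt20 did not pass the test. The median change of the 6 was 1.33 on the log2 scale, against 0.01 over all genes. In such bulk samples, a change in the number of cells of a type and a change in RNA per cell cannot be told apart. The tumours are also a different mixture of cells from whole lung.

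Krt8, the type II partner of the primary pair, had intensities of 8089.9, 6439 and 6487 in the tumours, against 2576.5, 2903 and 2939.8 in 12-month wild type lung. The lowest tumour array stood well above the highest wild type array, with no overlap. The difference was 1.31 ± 0.12 on the log2 scale (SE, n = 3 each), or 2.48-fold, with a limma adjusted p of 0.00486. Its partner Krt18 gave 4107, 3723 and 3480.4 in the tumours and 1367, 1371 and 1484 in wild type lung, again as 2 separate sets of arrays. The Krt18 difference was 1.41 ± 0.09, or 2.66-fold (limma adjusted p = 0.00303). The changes of Krt8 and Krt18 differed by -0.10 on the log2 scale, which was not distinguishable from the replicate spread (exact two-sided permutation test of the difference per array, p = 0.2, n = 3; the smallest p that 3 against 3 allows is 0.1). At 7 months the same difference was 0.21 in Smad4 d/d lung and 0.11 in Smad4-intact mutant lung against wild type lung, each with no overlap of arrays and the smallest possible exact permutation p of 0.1.

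Krt19, the short type I keratin of airway and duct cells, moved most among the 6 by fold. It measured 5858, 4203 and 5431 in the tumours, against 1351, 1554 and 1834 in wild type lung, so that the lowest tumour array lay above every wild type array. This was a difference of 1.70 ± 0.17 on the log2 scale, or 3.24-fold (limma adjusted p = 0.00573). Calls for Krt8, Krt18 and Krt19 stood under each of the 17 alternatives tried.

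Krt23 was the most uneven member. The tumour arrays read 388, 939.7 and 572, against 238, 211 and 226 in wild type lung, so the tumours spread over more than the whole distance between the groups while still not overlapping them. The difference was 1.34 ± 0.30 on the log2 scale, or 2.54-fold, with a limma adjusted p of 0.0333. That call was lost without wild type array 1, 2 or 3 in turn (adjusted p = 0.0876, 0.103 and 0.0996) and without tumour array 3 (0.0943), over a range of 0.000668 to 0.103 in its 17 alternatives. Krt7, the other type II member, read 3366, 2967 and 3832 in the tumours and 2245, 2465 and 2481 in wild type lung. All 3 tumour arrays were higher, but by a smaller step of 0.49 ± 0.12, or 1.40-fold (limma adjusted p = 0.0385). That call was lost under 7 of its 17 alternatives, among them a pseudocount of 1 (adjusted p = 0.0558), the 1 wild type array without Xist signal in a fit that takes the spread from the other groups (0.0521; this leaves an arm of 1 array and does not separate Xist from the loss of the other 2 arrays), and leaving out wild type array 1, 2 or 3 (0.120, 0.0981 and 0.0974) or tumour array 1 or 3 (0.101 and 0.0914); the range was 0.00135 to 0.120.

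Krt7 moved less than Krt18: the difference between their changes was -0.92 on the log2 scale, with no overlap between tumour and wild type arrays (exact two-sided permutation test, p = 0.1, the smallest possible at n = 3 each). Krt20 went against the direction of the others without passing the test. Its dim probe set read 110, 76.85 and 91.2 in the tumours, against 104, 118 and 168 in wild type lung, and the ranges overlapped. The difference was -0.41 on the log2 scale with a 95% interval from -0.88 to 0.06 (limma adjusted p = 0.209).

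**Figure D1:**
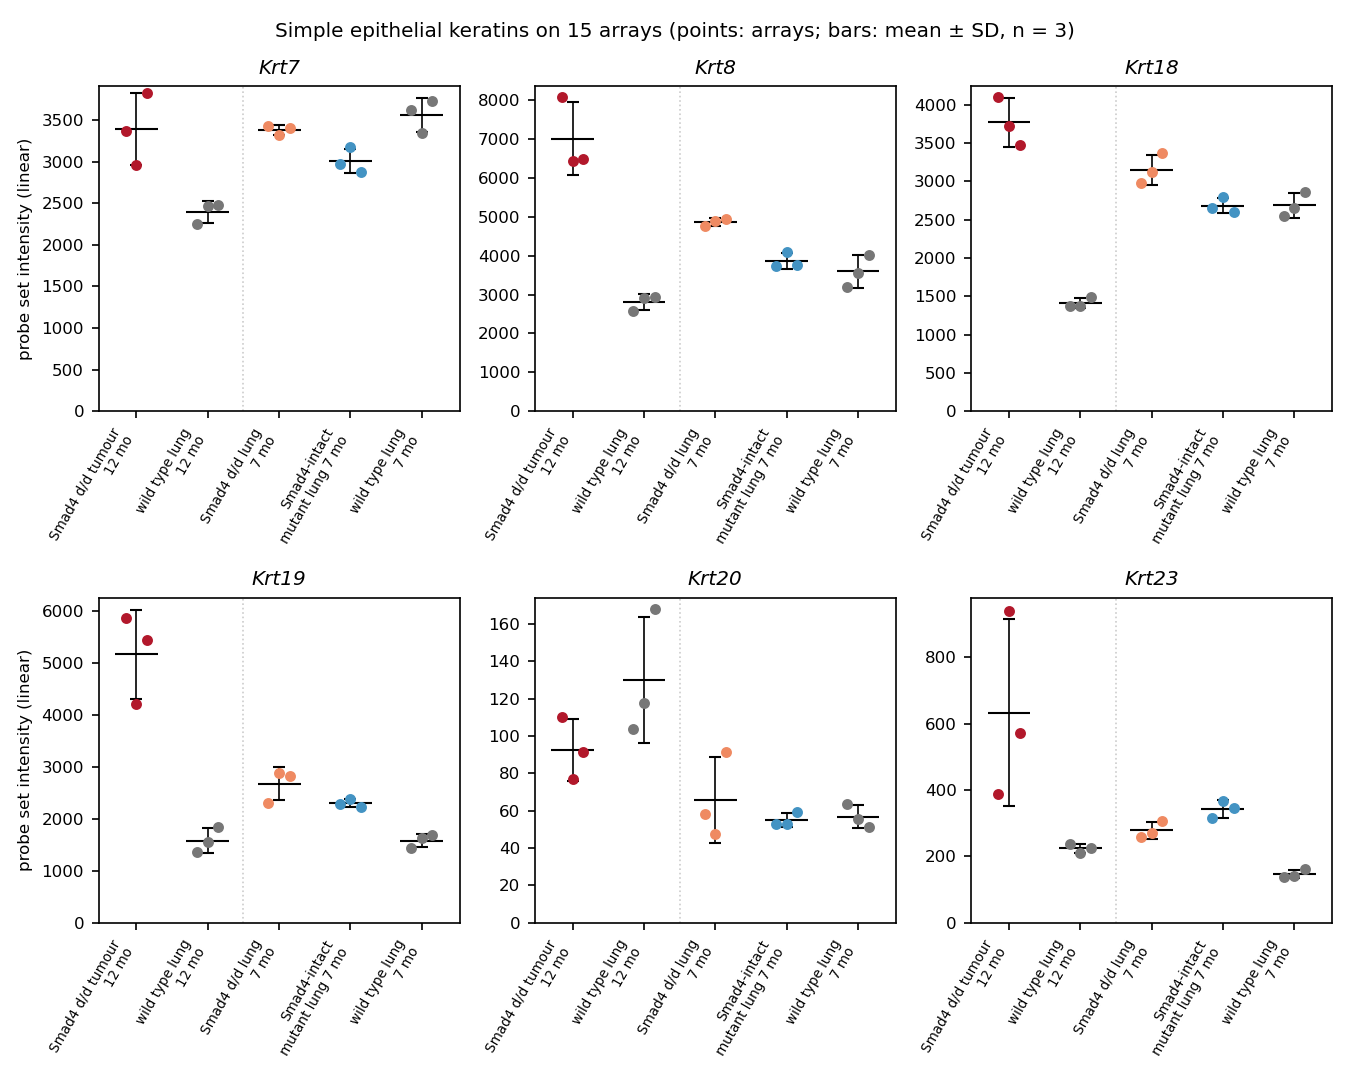
Intensity of each keratin's probe set (linear scale, from 0, own axis per gene) on the 15 arrays; points are arrays, bars the mean ± SD of 3, and groups run from the 12-month tumours and their wild type lung to the 7-month Smad4 d/d, Smad4-intact mutant and wild type lungs. Krt8, Krt18 and Krt19 stand highest in the tumours, Krt7 is lowest in 12-month wild type lung, and Krt23 in 7-month wild type lung lies below all other arrays.

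Krt8 is the member with several probe sets. The 2 further ones carry the suffix _x_at, which marks probes that can cross-hybridise, and both gave the same order of groups. The brighter of them ranged from 5924 to 7214 in the tumours and from 2134 to 2343 in 12-month wild type lung, and the other from 5524 to 6836 in the tumours and from 1972 to 2156 in 12-month wild type lung. Fitted over 34945 probe sets, their tumour changes were 1.49 ± 0.11 and 1.51 ± 0.11 on the log2 scale (limma adjusted p = 0.00405 and 0.00408), above the 1.31 of the set with the highest level. With the mean of all probe sets, the change of Krt8 minus that of Krt18 was 0.0298 in place of -0.10, so the order of the pair depends on the probe set.

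**Figure D2:**
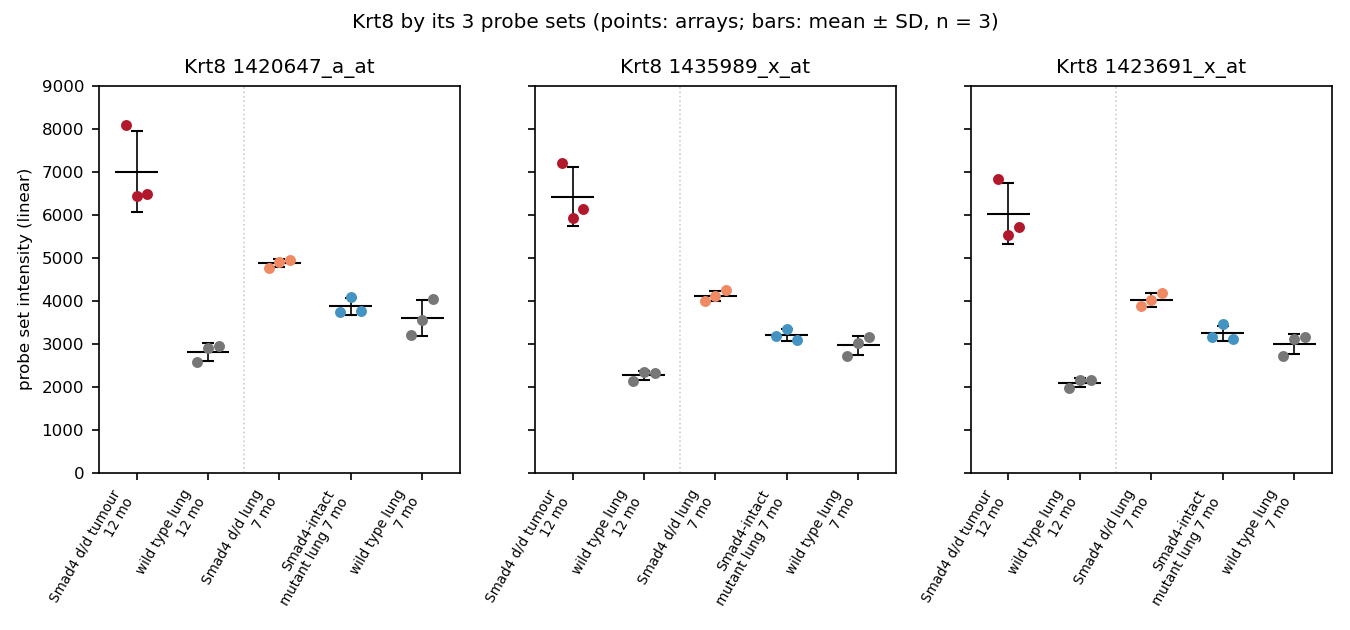
Intensity (linear scale) of Krt8 by each of its 3 probe sets on the 15 arrays, with group means ± SD (n = 3). In each panel the 12-month tumours stand highest, the 7-month Smad4 d/d lungs next, and 12-month wild type lung lowest.

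In 7-month Smad4 d/d lung, 3 of the 6 keratins were called higher than in wild type lung and 0 lower, where 6.42% of all genes were called higher, 1.39% lower and 7.81% in either direction. These were Krt23, Krt19 and Krt8, at 1.81-fold, 1.68-fold and 1.36-fold. The median of the 6 members was 0.34 on the log2 scale, against 0.01 over all genes. Krt23 gave 258, 270.5 and 307 in Smad4 d/d lung and 136, 141 and 162 in wild type lung, with no overlap. Its change was 0.86 ± 0.09 on the log2 scale (limma adjusted p = 0.000902). Krt19 gave 2304, 2883 and 2819 in Smad4 d/d lung, against 1431, 1622 and 1688 in wild type lung, also as separate sets. It changed by 0.75 ± 0.10 (limma adjusted p = 0.00252).

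Krt8 read 4763, 4897.5 and 4946 in Smad4 d/d lung, a tight set that lay above the 3195, 3558 and 4029 of wild type lung. The change was 0.44 ± 0.09 on the log2 scale, or 1.36-fold (limma adjusted p = 0.0191). It was no longer called when only these 2 groups were fitted (adjusted p = 0.0689), without wild type array 2 (0.0508) or without Smad4 d/d array 2 or 3 (0.0640 and 0.0596), over a range of 0.00272 to 0.0689 in 21 alternatives. Krt18 read 2979, 3117 and 3366 in Smad4 d/d lung, against 2545, 2659 and 2859 in wild type lung. Here too the groups did not overlap, as for 15.2% of all genes in this direction (10.9% in the other), but the 0.23 ± 0.07 difference had a limma adjusted p of 0.102 and was not called. With a variance trend and robust fitting it had an adjusted p of 0.0361, within a range of 0.0361 to 0.240.

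Krt7 and Krt20 overlapped between these groups. Krt7 measured 3434, 3319 and 3405 in Smad4 d/d lung and 3618, 3342 and 3735 in wild type lung, a difference of -0.07 with a 95% interval from -0.23 to 0.08 on the log2 scale (limma adjusted p = 0.582). Krt20 measured 58.0, 47.5 and 91.3 in Smad4 d/d lung and 63.5, 55.7 and 51.1 in wild type lung, with 1 Smad4 d/d array above the rest. The difference was 0.13, with an interval from -0.26 to 0.53 (limma adjusted p = 0.710), and it turned to -0.08 without that array.

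In Smad4-intact mutant lung of 7 months, 2 keratins were called higher than in wild type lung and 1 lower, where 9.79% of all genes were called higher, 5.40% lower and 15.2% in either direction. This comparison uses the same wild type arrays as the one before it. The median of the 6 members was 0.05 on the log2 scale, against 0.02 over all genes. Krt23 stood at 314, 367 and 346 in Smad4-intact mutant lung, against 136, 141 and 162 in wild type lung, with no overlap and the largest fold of any member at this age. The change was 1.14 ± 0.09 on the log2 scale, or 2.21-fold (limma adjusted p = 0.000189). Krt19 stood at 2292, 2380.3 and 2226 in Smad4-intact mutant lung and 1431, 1622 and 1688 in wild type lung, without overlap. It changed by 0.54 ± 0.10, or 1.45-fold (limma adjusted p = 0.00877).

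Krt7 was the member called lower. It read 2975, 3173 and 2878 in Smad4-intact mutant lung, each below the 3618, 3342 and 3735 of wild type lung. Of all genes, 15.6% did not overlap in this direction and 20.0% in the direction of Krt19 and Krt23. It fell by 0.24 on the log2 scale (SE 0.07), or 1.18-fold lower, with a limma adjusted p of 0.0443. The call is a marginal one: it was lost under 13 of 21 alternatives (adjusted p from 0.0104 to 0.146), among them leaving out any one of the Smad4-intact mutant arrays (0.132, 0.0610 and 0.146) or of the Smad4 d/d arrays, which enter only through the spread (0.0677, 0.0632 and 0.0551), and wild type array 1 or 3 (0.103 and 0.115).

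The Krt8 and Krt18 pair did not pass the test here. Krt8 measured 3742, 4097 and 3755 in Smad4-intact mutant lung and 3195, 3558 and 4029 in wild type lung, with overlap, a difference of 0.11 with an interval from -0.09 to 0.31 (limma adjusted p = 0.477). Krt18 measured 2646, 2793 and 2603 in Smad4-intact mutant lung and 2545, 2659 and 2859 in wild type lung, with the mutant arrays inside the wild type range. The interval ran from -0.17 to 0.17 on the log2 scale (limma adjusted p = 0.989). Krt20, at 52.6, 52.7 and 59.4 in Smad4-intact mutant lung and 63.5, 55.7 and 51.1 in wild type lung, differed by -0.04 with an interval from -0.43 to 0.36 (limma adjusted p = 0.927).

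Set directly against each other, Smad4 d/d lung and Smad4-intact mutant lung gave 0 called keratins in either direction in limma, where 0.918% of all genes were called higher, 0.841% lower and 1.76% in either direction; at an unadjusted p under 0.05 there were 4. Krt7, Krt8 and Krt18 were higher on all Smad4 d/d arrays than on all Smad4-intact mutant arrays, as were 14.4% of all genes, and Krt23 was lower on all of them, as were 14.2%. For Krt8, with 4763, 4897.5 and 4946 in Smad4 d/d lung against 3742, 4097 and 3755 in Smad4-intact mutant lung, the difference was 0.33 on the log2 scale, with an interval from 0.13 to 0.54 before any adjustment (limma adjusted p = 0.113). With a variance trend and robust fitting or with array weights Krt8 was called (adjusted p = 0.0365 and 0.0395), in a range from 0.0365 to 0.300 over 21 alternatives. Krt18 differed by 0.23, with an interval from 0.06 to 0.40 (limma adjusted p = 0.165), and Krt7 by 0.17, from 0.02 to 0.32 (0.244). Krt23 differed by -0.28, from -0.50 to -0.07 (0.184), so it stood lower in Smad4 d/d lung on all arrays without being called. Krt19 differed by 0.21, from -0.02 to 0.44 (0.331), and Krt20 by 0.17, from -0.23 to 0.56 (0.654). These intervals do not show that the genotypes express the keratins alike.

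**Figure D3:**
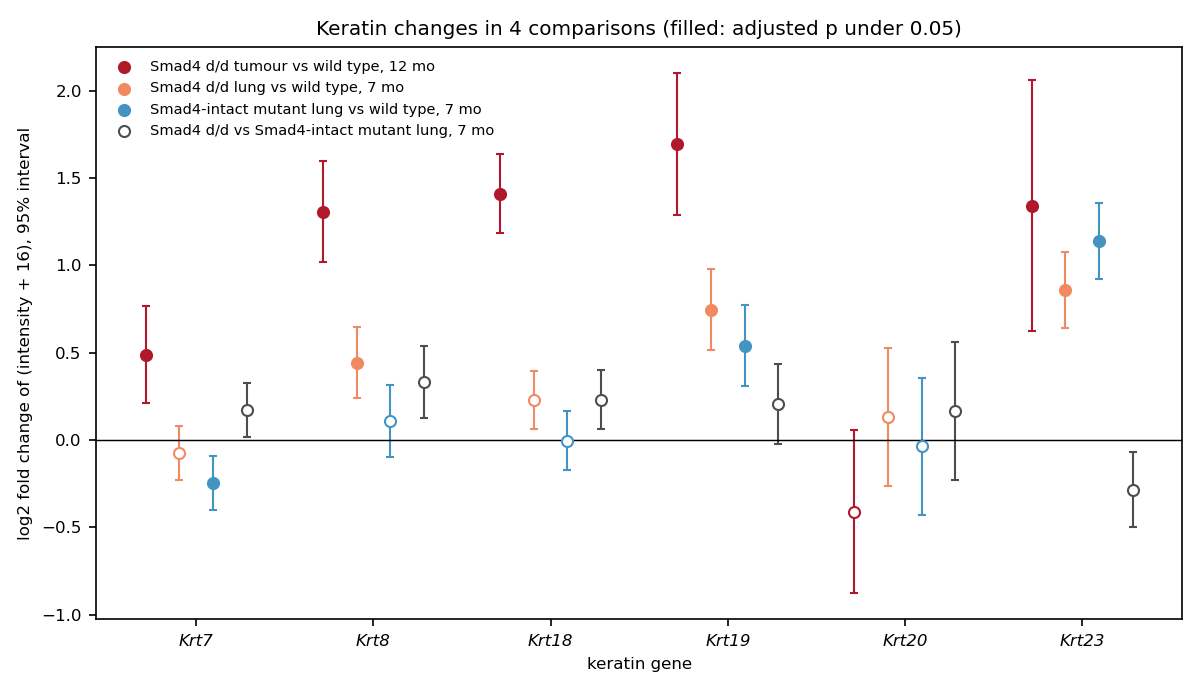
Change of each keratin on the log2(intensity + 16) scale with its 95% interval in 4 comparisons, the group named first over the one named second in the legend; filled points had an adjusted p under 0.05 over all genes. In the tumours Krt8, Krt18, Krt19 and Krt23 lie between 1.31 and 1.70, in 7-month lung Krt19 and Krt23 are called in both mutant genotypes, and no point of the Smad4 d/d against Smad4-intact mutant comparison is filled.

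The tumour change at 12 months was larger than the Smad4 d/d change at 7 months for 4 keratins, by a contrast over all 15 arrays in which 1.75% of all genes were called higher, 1.41% lower and 3.17% in either direction. Krt18 had the largest such difference, 1.18 ± 0.11 on the log2 scale (limma adjusted p = 0.000395), followed by Krt19 at 0.95 ± 0.20 (0.0230), Krt8 at 0.87 ± 0.15 (0.00996) and Krt7 at 0.56 ± 0.13 (0.0329). The Krt18 and Krt8 calls stood under all 24 alternatives. Krt19 lost its call without tumour array 3 (adjusted p = 0.0585), wild type array 3 of 7 months (0.0589) or Smad4 d/d array 1 (0.0620), in a range of 0.00367 to 0.0620, and Krt7 lost it in 10 alternatives that each left out 1 array: wild type 1 or 3 of 12 months (0.0718 and 0.0613), tumour 1 or 3 (0.0544 and 0.0604), wild type 1 or 3 of 7 months (0.0724 and 0.0785), Smad4-intact mutant 1 (0.0533) or Smad4 d/d 1, 2 or 3 (0.0707, 0.0707 and 0.0612), within a range of 0.00460 to 0.0785. Krt23, already higher at 7 months, differed by 0.49 with an interval that includes 0 (adjusted p = 0.442), and Krt20 by -0.54 (0.309).

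The wild type levels that enter this contrast were not alike at the 2 ages. Krt18 averaged 1407 ± 66.4 in 12-month and 2688 ± 159 in 7-month wild type lung, and Krt7 averaged 2397 ± 132 in 12-month and 3565 ± 202 in 7-month wild type lung (SD, n = 3 each), with no overlap in either gene. Krt8 averaged 2806 ± 200 in 12-month and 3594 ± 418 in 7-month wild type lung, also without overlap. The dim Krt20 went the other way, at 130 ± 33.7 in 12-month and 56.8 ± 6.27 in 7-month wild type lung, again without overlap. Krt19 differed by less than its spread, at 1580 ± 243 in 12-month and 1580 ± 133 in 7-month wild type lung. Krt23 was higher in 12-month wild type lung, at 225 ± 13.6, than in 7-month wild type lung, at 146 ± 13.4. No test was made across ages, since each age is its own set of arrays. The share of all genes without overlap between groups of different age was not counted. These differences are therefore not shown to be particular to the keratins. The tumours averaged 3770.4 ± 316 for Krt18 and 3388 ± 433 for Krt7, against 3154 ± 196 and 3386 ± 60.01 in 7-month Smad4 d/d lung, so for Krt7 the tumour arrays spread around the level of the 7-month lung.

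By group means, Krt8 was ordered tumours, Smad4 d/d lung, Smad4-intact mutant lung, 7-month wild type lung and 12-month wild type lung, at 7005 ± 940, 4869 ± 94.7, 3865 ± 201, 3594 ± 418 and 2806 ± 200 (SD, n = 3 each). Only Smad4-intact mutant lung and 7-month wild type lung overlapped among neighbours in that order. Krt19 kept the first 3 places in the same order, at 5164 ± 859, 2668 ± 317 and 2299.5 ± 77.2, with Smad4 d/d and Smad4-intact mutant lung overlapping, above both wild type groups. Krt23 was ordered tumours, Smad4-intact mutant lung, Smad4 d/d lung, 12-month wild type lung and 7-month wild type lung, at 633 ± 281, 342 ± 26.4, 279 ± 25.9, 225 ± 13.6 and 146 ± 13.4, with no overlap between any neighbours.

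Over the 15 arrays, log2 levels of Krt8 followed those of Krt19 (Pearson r = 0.95) and Krt18 (r = 0.89), Krt7 followed Krt18 (r = 0.81) more than its fellow type II gene Krt8 (r = 0.60), and Krt20 followed none of the other members, with r between -0.54 and 0.11. Outside the family, the 3 genes of 13224 with the most similar pattern were Sdcbp2, Stoml3 and Tanc2 for Krt19 (r = 0.98 each), Slc28a3, Umod and Fam83h for Krt8 (r = 0.96 each), S100a6, Etnk1 and Klf5 for Krt18 (r between 0.94 and 0.96) and Slc25a33, Wnk2 and Upk1b for Krt7 (r between 0.90 and 0.92). Krt23 was followed by Jmjd8, Mrpl17 and Bnipl (r between 0.93 and 0.96) and Krt20 by Nckap1l, Csf2rb and Rab32 (r of 0.96 each). Nckap1l and Csf2rb are genes of blood cells, which epithelium is not known for. Mapk13, Sdcbp2 and Mboat1 were nearest to the mean of the 6 keratins (r = 0.97 each). The 15 arrays share group, age and sample composition, so these values describe the arrays and carry no test.

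General epithelial genes moved in the same comparisons. The 11 measured genes include adhesion genes such as Epcam and Cdh1, and epithelial genes of other functions. Of the 11, 10 were called higher in the tumours (median 1.03 on the log2 scale) than in wild type lung of their age. In Smad4 d/d lung 8 were called higher (0.53) and in Smad4-intact mutant lung 10 (0.48), each against wild type lung of 7 months. The share of all genes called higher was 9.23%, 6.42% and 9.79% in these comparisons. Between Smad4 d/d and Smad4-intact mutant lung 0 of the 11 were called in limma, with 2 at an unadjusted p under 0.05. There 1.76% of all genes were called in either direction. Epcam averaged 3459.7 ± 435 in the tumours and 1436 ± 90.3 in 12-month wild type lung, and 1952 ± 171 in Smad4 d/d lung, 1701 ± 49.97 in Smad4-intact mutant lung and 1202 ± 42.1 in 7-month wild type lung (SD, n = 3 each). The summed intensity of the 11 genes ranged from 21079 to 22674 in the tumours and from 12076 to 13648 in 12-month wild type lung, and from 15099 to 15716 in Smad4 d/d lung, 14785 to 15103 in Smad4-intact mutant lung and 11170.2 to 11994 in 7-month wild type lung. The part of this epithelial shift in the keratin results was not tested.

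Markers of single lung cell types moved too, and their part in the keratin results was likewise not tested. All 8 ciliated cell genes were called higher in the tumours, in Smad4 d/d lung and in Smad4-intact mutant lung against wild type lung, with summed intensities of 8022 to 12648 in the tumours and 3442 to 4523 in 12-month wild type lung, and of 4524 to 5573 in Smad4 d/d lung, 4846 to 5120.4 in Smad4-intact mutant lung and 2162 to 2237 in 7-month wild type lung. Of 7 goblet and mucous genes, 7, 5 and 4 were called higher in these comparisons, and 2 were also called higher in Smad4 d/d than in Smad4-intact mutant lung. Their sum ran from 23000 to 28980 in the tumours, against 1682 to 5599.7 in 12-month wild type lung, and from 11322 to 12911 in Smad4 d/d lung, 5807 to 6725 in Smad4-intact mutant lung and 533 to 2319 in 7-month wild type lung. Club and airway secretory genes were called higher for 3, 5 and 4 of 7. The share of all genes called higher was 9.23%, 6.42% and 9.79% in the comparisons with wild type lung. It was 0.918% in Smad4 d/d over Smad4-intact mutant lung.

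Markers of cells other than airway epithelium also moved in the tumours. Of 8 endothelial genes 5 were called lower there and 0 higher, of 7 macrophage genes 4 lower and 0 higher, and of 8 alveolar type 1 genes 2 lower, whereas 0 of 6 alveolar type 2 genes were called (limma; 0 at an unadjusted p under 0.05). All 6 cardiac muscle genes were called higher in the tumours, with sums of 22475 to 26056 against 8799 to 12722 in 12-month wild type lung. Of all genes, 9.23% were called higher and 6.02% lower in the tumours. Mesothelium also contains Krt7, Krt8, Krt18 and Krt19. Of 5 mesothelial genes, 2 were called higher and 1 lower in the tumours. In Smad4 d/d lung 2 were called lower and in Smad4-intact mutant lung 3, against 1.39% and 5.40% of all genes. Their summed intensities were 3301 to 5533 in the tumours and 1395 to 1935 in 12-month wild type lung. The tumour sum rests mostly on Msln and Upk1b, the 2 called higher. Msln averaged 2585 in the tumours and 329 in 12-month wild type lung, while the median change of the 5 was -0.20 on the log2 scale. At 7 months the sums were 3099 to 3491 in Smad4 d/d lung, 2117 to 2402 in Smad4-intact mutant lung and 3608 to 3846 in wild type lung. The part of these markers in the keratin results was not tested. No gene of these cell type lists lay below an intensity of 16 on all arrays of a group apart from Krt14 and Krt17 of the basal list.

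Keratins of basal epithelium gave the largest folds of any keratin in the tumours. Of the 42 other keratins on the array, 4 were called higher and 3 lower in the tumours, a share close to that of all genes, and the median of 0.08 on the log2 scale stood near 0. Many of the 42 were dim. On every tumour array 11 lay below an intensity of 16, and on every 12-month wild type array 14 did. Their share and median therefore rest in part on genes near the floor. Krt15 averaged 2045 in the tumours and 18.6 in 12-month wild type lung, Krt14 526 in the tumours and 6.44 in wild type lung, and Krt17 264 in the tumours and 9.79 in wild type lung. With 16 added to each value these were 55.7-fold, 23.4-fold and 10.7-fold higher (limma adjusted p = 0.00303, 0.00330 and 0.00149), folds that understate the change of such dim genes. Krt14, Krt15 and Krt17 are keratins of basal cells and their progeny. Krt79, a keratin of hair follicle ducts in mouse skin, fell to 179 in the tumours, against 1196 in wild type lung (6.36-fold lower, limma adjusted p = 0.00563). Krt5, also higher, and Krt1 and Krt80, also lower, complete the 7 and are named from their values.

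At 7 months Krt15 was the 1 keratin called between the mutant genotypes. It was higher in Smad4 d/d than in wild type lung, at means of 427 and 116 (3.22-fold, limma adjusted p = 0.00291), and higher than in Smad4-intact mutant lung, at 127 (3.002-fold, adjusted p = 0.0174). Between Smad4-intact mutant and wild type lung it differed by 0.10 on the log2 scale (limma adjusted p = 0.832). Of the 42 other keratins 1, Krt80, was called lower there besides the member Krt7. It stood at 1392 in Smad4-intact mutant and 2299 in wild type lung (1.64-fold lower, limma adjusted p = 0.00913). Of the 10 basal and squamous genes, 7 of them keratins, 6 were called higher in the tumours, 2 in Smad4 d/d lung and 0 in Smad4-intact mutant lung (limma; 0 at an unadjusted p under 0.05). The share of all genes called higher was 9.23%, 6.42% and 9.79% in these comparisons. The basal and squamous sum ran from 2837 to 6914 in the tumours, against 345 to 381 in 12-month wild type lung. At 7 months it ran from 695 to 1304 in Smad4 d/d lung, 499 to 551 in Smad4-intact mutant lung and 452 to 552 in wild type lung.

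A list of 18 genes covers mainly proteins that anchor, bind or modify keratin filaments. It also holds Macf1, described below, and Krtcap2, a subunit of the oligosaccharyltransferase complex that is not such a protein. Of the 18, 4 were called higher and 1 lower in the tumours, where 9.23% of all genes were called higher and 6.02% lower. Their median was 0.19 on the log2 scale. Dsp, whose product desmoplakin ties keratin filaments to desmosomes, averaged 4219 in the tumours and 2115 in wild type lung (1.98-fold, limma adjusted p = 0.00795). Fam83h, which recruits casein kinase to keratin filaments, was 1.69-fold higher (adjusted p = 0.0103), Pkp3, a desmosomal plakophilin, 1.64-fold higher (0.0167), and Fbf1, a keratin-binding protein of ciliary base and junctions, 1.34-fold higher (0.0305). Macf1, the spectraplakin that links actin with microtubules, is the 1 gene called lower and is named from its value (1.58-fold lower, 0.0341).

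In 7-month Smad4 d/d lung 1 of the 18 was called, where 7.81% of all genes were called in either direction. This was Eppk1, the epiplakin that bundles keratins, at 1847 in Smad4 d/d and 1256 in wild type lung (1.46-fold higher, limma adjusted p = 0.0127). In Smad4-intact mutant lung Pkp2, a plakophilin, was 1.26-fold higher (adjusted p = 0.0121), while Ywhaz, a 14-3-3 protein of the family that binds phosphorylated Krt18, and Plec, the cytolinker plectin, were 1.23-fold and 1.22-fold lower (0.00910 and 0.0408). Against 1 higher and 2 lower of the 18 there, 9.79% of all genes were called higher and 5.40% lower. Ywhaz was also 1.23-fold higher in Smad4 d/d than in Smad4-intact mutant lung (limma adjusted p = 0.0409), where 1.76% of all genes were called. In the contrast of the tumour and 7-month changes 3 of the 18 were called higher and 0 lower, against 1.75% and 1.41% of all genes. Dsp differed by 0.77 on the log2 scale (limma adjusted p = 0.0164). Ppl and Evpl, 2 plakins of the cornified envelope, differed by 0.55 and 0.87 (0.0425 and 0.0465). A further list of 16 holds other intermediate filament genes, such as vimentin and the lamins. It also holds Syne1, which encodes a nuclear envelope protein and not an intermediate filament, and which was not called. Of the 16, 1 was called higher in the tumours, against 9.23% of all genes. In Smad4 d/d lung limma called 0 in either direction, against 7.81%, with 1 at an unadjusted p under 0.05. In Smad4-intact mutant lung 3 were called lower, against 5.40%.

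**Figure D4:**
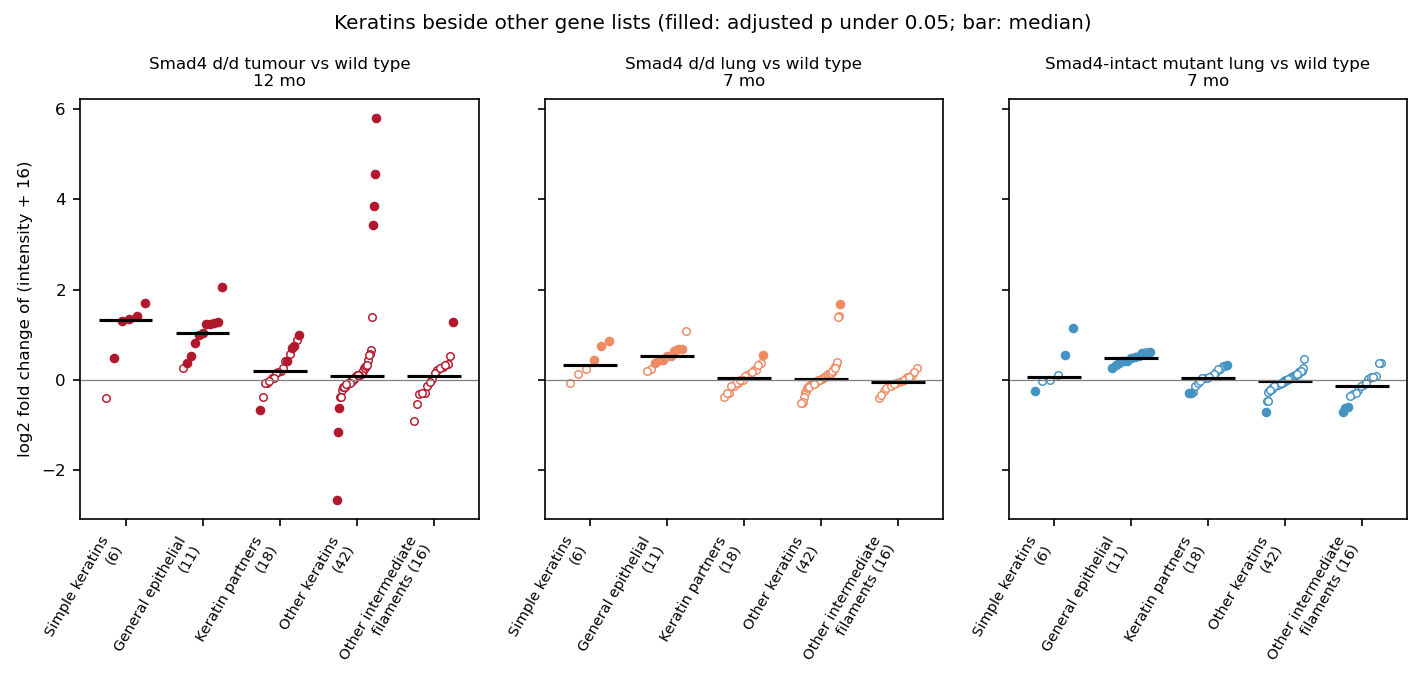
Change of each gene on the log2(intensity + 16) scale in the simple epithelial keratins and 4 other lists (number of genes in brackets), in the tumours, Smad4 d/d lung and Smad4-intact mutant lung, each against wild type lung of its age; points are genes, filled at an adjusted p under 0.05, and bars are medians. The simple keratins have medians of 1.33, 0.34 and 0.05, general epithelial genes 1.03, 0.53 and 0.48, and the other keratins, from Krt79 at -2.67 to Krt15 at 5.80 in the tumours, 0.08, 0.01 and -0.02. Of the 42 other keratins, 11 to 15 lay below an intensity of 16 on every array of a group. Syne1 in the list of other intermediate filaments and Krtcap2 in that of keratin partners are not such genes.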

How the data were processed

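RNA of lung and lung tumours was labelled by the Affymetrix 3' IVT Express method, which reads transcripts from the 3' end, per the labels' protocols, on 15 arrays. The authors deposited 1 linear intensity per array for each of 45101 probe sets; how these were background-corrected, summarized and scaled is not stated in the labels or file headers. On each array 17.1% to 21.1% of intensities were under 16.

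Probe sets with 1 gene symbol in the platform annotation were kept (34945), and each gene took its brightest probe set by mean log2(intensity + 16) over 15 arrays, which left 18193 genes. The log2 values were tested with limma (version 3.58.1, R 4.3.3; lmFit and eBayes, two-sided) with Benjamini-Hochberg adjustment over all genes at 0.05, in 1 fit of the 6 arrays of 12 months, 1 of the 9 arrays of 7 months, and a contrast over all 15. Fold changes understate those of dim genes. The number of arrays limits the precision. In simulated data 200 of 18193 genes were changed, with normal noise. There the 12-month fit recovered 25.4%, 74.6% and 93.9% of genes changed by 1.5, 2 and 4-fold. The 7-month Smad4 d/d against wild type comparison recovered 40.3%, 71.6% and 98.5%. A larger share of genes was called in the data, 15.2% and 7.81% in these comparisons, so these rates may not carry over.

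All 6 members are named in every comparison; of the lists of keratin partners and other keratins up to 4 called genes a comparison are named, by smallest adjusted p, and of all other lists the counts. The members and lists were chosen with earlier results of these data known. Alternatives varied the pseudocount, normalization, gene filter, probe sets, variance model, arrays fitted and replicate block. Replicate numbers at 7 months were not treated as pairs, since the labels do not say that they mark a shared batch. Deviations of arrays with the same number correlated between -0.13 and 0.16. Arrays with different numbers were not compared in this way, so these values do not decide whether a batch was shared. The second deleted gene is not reported here.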

Additional observations from a re-analysis of the deposited data

Results flagged for a closer look

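For 4 keratins the tumour change at 12 months exceeded the Smad4 d/d change at 7 months by a test of the difference itself (limma contrast over 15 arrays). Krt18 differed by 1.18 on the log2 scale, Krt19 by 0.95, Krt8 by 0.87 and Krt7 by 0.56. The wild type levels of Krt18, Krt7 and Krt8 were themselves lower at 12 months than at 7 months. Age, study and tissue sampled (part of 1 tumour against part of a whole lung) cannot be told apart. Xist also differed, at 64.1 to 237 in the tumours and 4516 to 4902 in 7-month Smad4 d/d lung, and its part was not tested.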

How the results depend on the processing

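For the 6 keratins, 624 recomputed values over 30 results gave the same call in 573, lost it in 41, gained it in 3 and changed sign in 7. Each of the 7 sign changes was of a difference near 0 that was not called. Krt18 in Smad4-intact mutant against wild type lung became 0.0102 with quantile normalization, and ran from -0.0410 to 0.0426 with 1 array left out. With 1 array left out, Krt20 ran from -0.0833 to 0.295 for Smad4 d/d against wild type, from -0.0927 to 0.0298 for Smad4-intact mutant against wild type and from -0.0477 to 0.331 for Smad4 d/d against Smad4-intact mutant lung. The number of keratins called higher ran from 3 to 5 in the tumours with 1 array left out, and from 2 to 4 in the contrast of the tumour and 7-month changes; over all 18193 genes those called higher ran from 622 to 1900 and from 162 to 857. The 1 keratin called lower in Smad4-intact mutant lung, Krt7, became 0 with a pseudocount of 1, with quantile normalization, with all 15 arrays in 1 fit and with only the 2 groups compared, and ran from 0 to 1 with 1 array left out. The fit with the replicate number as a block also gave 0 there (Krt7 limma adjusted p = 0.0880) and changed no other keratin's call. Whether arrays with the same number share a batch is not stated in the labels. Between Smad4 d/d and Smad4-intact mutant lung, 1 keratin (Krt8) was called with a variance trend and robust fitting and 1 (Krt8) with array weights, in place of 0. Krt8 minus Krt18 in the tumours was 0.0298 with the mean of all probe sets. The causes were not tested. With 3 arrays a group the precision is limited. On simulated data with 200 of 18193 genes changed, the 12-month fit recovered 25.4% of genes changed by 1.5-fold. That rate may not carry over to these data, where a larger share was called.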
